A study of Mus musculus with 6 samples.

Results

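The genes described here are 10 transcription factor genes that mark limb mesenchyme, the embryonic tissue from which cartilage and bone of the limbs form. They are Prrx1, Tbx2, Tbx3, Tbx4, Tbx5, Tbx15, Shox2, Pitx1, Meis1 and Meis2, chosen by name. All 10 were found among the 15771 protein-coding genes on the sequence that the data cover. Each was described by the DNA methylation peaks whose midpoint lay in its body or within 10 kb of either gene end, a span called its window below. This gave 42 peaks of the 84111 in the list.

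Prrx1 encodes a homeodomain protein of limb bud mesenchyme, and a Prrx1 (Prx1) enhancer drives the Cre used in the study. Tbx5 is the T-box gene of the forelimb bud, while Tbx4 and the homeobox gene Pitx1 act in the hindlimb bud, to which the knee belongs. Tbx2 and Tbx3 are T-box repressors of limb patterning, Tbx15 acts in skeletal outgrowth, Shox2 in the proximal limb, and Meis1 and Meis2 encode TALE homeodomain proteins that mark the proximal limb. Dnmt1 copies CpG methylation onto newly made DNA strands. Promoters rich in CpG are usually free of methylation, and genes of this kind often lie in broad unmethylated tracts.

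The study covered 6 primary chondrocyte cultures from knee articular cartilage of mice at postnatal day 3 to 5, with 3 cultures labelled control (genotype Dnmt1 flox) and 3 labelled cKO (Prx1-Cre;Dnmt1 flox/flox). The control label names no Cre and does not say whether both alleles are floxed. The Prx1 enhancer acts throughout limb mesenchyme, so this Cre is not limited to cartilage. MBD-seq, in which the protein MBD2 pulls down sonicated DNA fragments that carry methylated CpG before sequencing, was applied to each culture. The file analysed is 1 peak list called on 3 merged datasets whose group it does not name, with no value for any sample. No comparison of control with cKO, and no spread between animals, can therefore be given for any value below. The depth of each sample is unknown, and the list gives no expression, so the chondrocyte identity of the cultures was not tested.

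Promoter sequence was available for 5 of the 10 genes, Prrx1, Tbx4, Shox2, Meis1 and Meis2. No peak overlapped any of these 5 promoters. Each gene was read at a single promoter. Those of Prrx1, Tbx4, Meis1 and Meis2 lie inside the gene body, so any start nearer the gene end was not examined. Across all 24371 promoters on covered sequence a peak overlapped 4.26%, so an absence at 5 promoters is close to the background. Each promoter runs from 250 bases before the transcription start to 50 bases after it, and 4 are shown because they hold the CpG sites that MBD2 binds when methylated and span the range found, from Meis1, with most CpG and the nearest peak, to Prrx1, with fewest CpG, and to Shox2 and Tbx4, with the farthest peaks. Sequences are from RefSeq (GRCm38.p6), on the gene's strand, with each CpG (the motif CG, which reads the same on both strands) in capitals.
Shox2, chr3:66981722-66982021, minus strand: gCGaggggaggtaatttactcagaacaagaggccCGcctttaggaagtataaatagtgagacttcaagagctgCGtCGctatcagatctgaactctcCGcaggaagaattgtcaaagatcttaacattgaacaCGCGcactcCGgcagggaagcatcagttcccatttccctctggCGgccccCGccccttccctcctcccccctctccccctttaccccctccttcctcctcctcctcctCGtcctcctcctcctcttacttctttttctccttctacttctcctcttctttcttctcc
Tbx4, chr11:85896515-85896814, plus strand: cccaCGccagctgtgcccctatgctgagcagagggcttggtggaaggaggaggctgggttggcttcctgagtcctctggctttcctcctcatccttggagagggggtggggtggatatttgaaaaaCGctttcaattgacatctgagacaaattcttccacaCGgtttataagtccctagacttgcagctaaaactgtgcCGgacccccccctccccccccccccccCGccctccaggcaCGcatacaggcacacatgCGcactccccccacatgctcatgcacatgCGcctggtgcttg
Prrx1, chr1:163313601-163313900, minus strand: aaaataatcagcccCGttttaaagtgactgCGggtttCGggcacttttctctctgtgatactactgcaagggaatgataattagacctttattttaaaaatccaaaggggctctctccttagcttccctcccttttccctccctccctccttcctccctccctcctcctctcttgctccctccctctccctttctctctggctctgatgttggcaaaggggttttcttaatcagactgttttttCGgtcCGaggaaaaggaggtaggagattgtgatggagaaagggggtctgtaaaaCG
Meis1, chr11:19018920-19019219, minus strand: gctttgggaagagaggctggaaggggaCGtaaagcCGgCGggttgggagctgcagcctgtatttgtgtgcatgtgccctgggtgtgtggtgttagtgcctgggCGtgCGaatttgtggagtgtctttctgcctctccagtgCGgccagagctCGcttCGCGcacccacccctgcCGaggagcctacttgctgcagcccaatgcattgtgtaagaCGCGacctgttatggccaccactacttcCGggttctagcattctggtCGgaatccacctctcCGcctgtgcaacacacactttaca

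The Meis1 promoter held 15 CpG, that of Meis2 13, Shox2 11, Tbx4 8 and Prrx1 6. All promoters on covered sequence had a median of 7 CpG (quartiles 3 and 21), and 95.1% held at least 1. Peaks overlapped 11.1% of promoters with 5 to 14 CpG, 1.85% of those with 15 or more and 1.52% of those with fewer than 5, so 4 of the 5 genes belong to the class in which promoter peaks were most frequent. The nearest peak edge lay 2636 bp from the Meis1 promoter, 2912 bp from that of Meis2, 4597 bp from that of Prrx1, 12364 bp from that of Shox2 and 17451 bp from that of Tbx4. Promoters of the other 5 genes were not analysed here.

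At least 1 peak lay in the window of 9 of the 10 genes, all except Shox2, against 81.7% of all protein-coding genes. In the body itself 8 of 10 had a peak, against a background of 64.7%. Among the 5775 protein-coding genes with a window of 50 kb or more the share was 93.9%, and all 5 members of that size (Prrx1, Tbx5, Tbx15, Meis1 and Meis2) had a peak. The windows together span 892.6 kb and hold 4.71 peaks per 100 kb. The median over the 10 genes was 3.49 peaks per 100 kb, beside 4.82 over all protein-coding genes (quartiles 1.99 and 10.4).

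**Figure D1:**
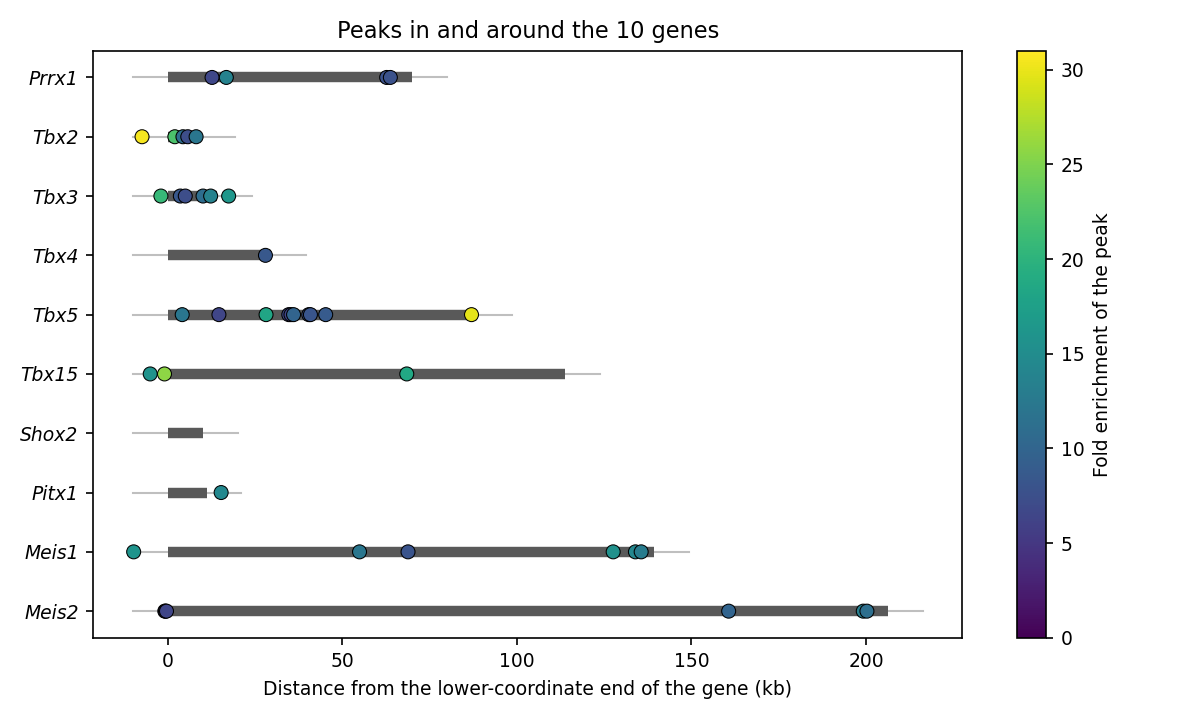
Positions of the 42 peaks along the 10 genes, as distance of the peak midpoint from the lower-coordinate gene end in kb; thick bars are gene bodies, thin lines the 10 kb on each side, and colour is the fold enrichment of each peak. Shox2 has no peak, Tbx2 and Tbx3 have peaks throughout short bodies, and most of the Meis2 body is empty.

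Density differed widely among the members. Tbx3 had 17.5 peaks per 100 kb of window (6 peaks; exact 95% Poisson interval 6.44 to 38.2) and Tbx2 had 17.0 (5 peaks; 5.53 to 39.8). Both are higher than at least 90.2% of protein-coding genes. Tbx5 followed with 9.20 (10 peaks; 4.41 to 16.9) and Prrx1 with 4.44 (4 peaks; 1.21 to 11.4). Below the all-gene median also lay Meis1 at 3.77, Pitx1 at 3.21, Meis2 at 2.65, Tbx15 at 2.24, Tbx4 at 2.01 and Shox2 at 0 peaks per 100 kb. The intervals of neighbours in this order overlap, and of the 45 pairs only those of Tbx3 and Meis2 (0.973 to 5.77) do not. Overlap of 2 such intervals does not show that the densities are equal. These intervals treat peaks as independent and cover counting error only.

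**Figure D2:**
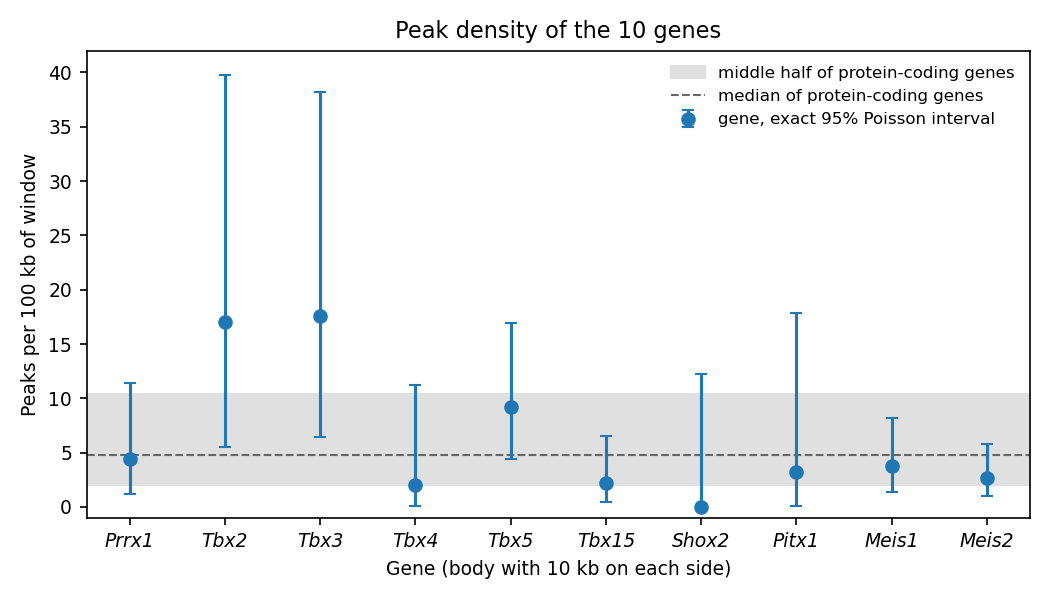
Peaks per 100 kb of window for each of the 10 genes, with exact 95% Poisson intervals for counting error; the dashed line is the median over 15771 protein-coding genes and the grey band the range between their quartiles. Tbx2 and Tbx3 lie above the band, and Shox2 is the one gene at 0.

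By family, the 5 T-box genes held 25 peaks over 355.9 kb, or 7.02 per 100 kb, and the 5 homeobox genes (Prrx1, Shox2, Pitx1, Meis1, Meis2) held 17 over 536.7 kb, or 3.17 per 100 kb. The ratio was 2.22, with an exact 95% interval of 1.15 to 4.38 for counting error that treats peaks as independent. This grouping was chosen after the values were seen. The interval included equality when Tbx2, Tbx3, Tbx5 or Meis2 was left out, with ratios of 1.93, 1.86, 1.92 and 1.98. The median fold enrichment was nearly equal, 11.1 in the T-box and 11.3 in the homeobox genes. All 5 peaks with a fold of at least 20 lay at T-box genes, at Tbx2, Tbx3, Tbx5 and Tbx15. They make up 20% of the 25 T-box peaks, a share below the 28.9% of the whole list. The largest fold at a homeobox gene was 16.0.

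The fold enrichment is the peak caller's own value, the pileup of reads at the summit over a background. Which reads made up that background is not given in the sources used here, and the authors name the list for methylation mediated by Dnmt1. If the background came from the other group of cultures, a fold would contrast groups and not measure capture alone; these readings cannot be told apart. The 42 peaks had a median fold of 11.2 (quartiles 7.87 and 15.3, range 5.28 to 30.5), against 13.2 in the whole list (quartiles 8.41 and 21.7). The 95% interval of the member median, 8.41 to 13.6, includes the list median, so a lower fold was not shown. Peaks in the windows of protein-coding genes had a median fold of 13.6, at the upper limit of that interval. Folds under 10 were found in 19 of the 42 peaks (45.2%), against 34.5% of the list, and folds of at least 20 in 5 (11.9%), against 28.9%. Member peaks were 57 to 1454 bp wide with a median of 351.5 bp, beside 415 bp in the list. The 95% interval of the member median width, 239 to 409 bp, excludes the list median. It includes the median of 393 bp of peaks in the windows of protein-coding genes. Widths under 200 bp made up 26.2% of member peaks (11 of 42) and 13.6% of the list. Widths over 1 kb made up 7.14% of member peaks (3 of 42) and 3.92% of the list. The median pileup was 89 reads (47 to 278), beside 127 reads in the list and 115 in the windows of protein-coding genes.

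A caller of the MACS family sets the background of a peak to a genome-wide average unless the background reads around it are more numerous, and whose reads these are is unknown here. The median recovered background of the list was 6.37 reads, called the common background below. It was found in 29 of the 42 member peaks (69.0%, 95% Wilson interval 54.0% to 80.9%, counting error only). In the whole list the share was 74.98%, and among peaks in the windows of protein-coding genes it was 83.9%. The 13 other member peaks had backgrounds from 6.42 to 13.9 reads, the highest being at Tbx5. Peaks with the same pileup over the common background have the same fold, as at Tbx2 and Tbx3, where 1 peak each has 53 reads and a fold of 7.33.

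**Figure D3:**
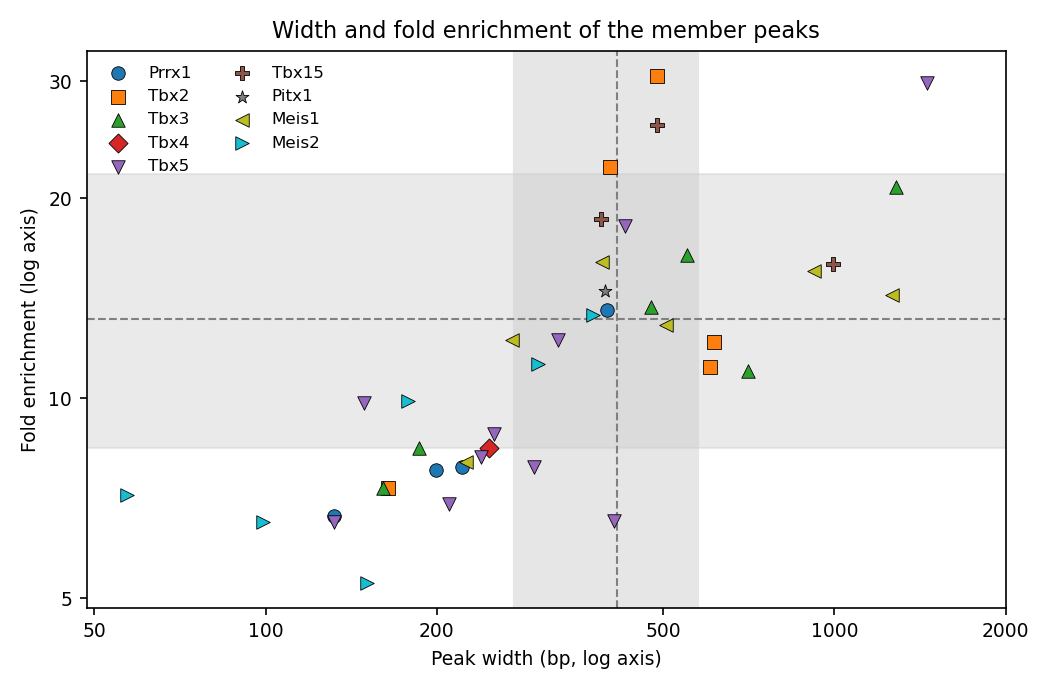
Width in bp and fold enrichment of the 42 peaks by gene, both on log axes; dashed lines are the medians of the whole list (415 bp and a fold of 13.2) and grey bands its quartile ranges. The narrowest peaks, of 57 and 99 bp, belong to Meis2, and the highest folds, 29.8 and 30.5, belong to Tbx5 and Tbx2.

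Of the 42 peaks, 32 (76.2%) had their midpoint in a gene body and 10 in the flanks. The bodies make up 77.6% of the window length, so peaks were placed in bodies about in proportion to length. Over all protein-coding genes 70.7% of window peaks lay in bodies that make up 71.9% of the length. Body peaks had a median fold of 10.4 and flank peaks one of 16.0. The body of another gene covered 11 of the 42 midpoints, and such peaks belong to each gene that covers them. In each case a long non-coding RNA (lncRNA) gene was among these, and at Tbx2 Bcas3 was as well. The same share over all gene windows was not computed.

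Tbx5 is transcribed in the forelimb bud and in the heart. All of its 10 peaks, the most of any member, lay inside the body of 88.7 kb (gene 21388, chromosome 5, 119796514 to 119885220). From the lower to the higher coordinate their folds were 12.2, 6.51, 18.2, 6.92, 6.52, 9.83, 7.87, 8.14, 8.82 and 29.8. The first 9 have folds of at most 18.2 and are 132 to 429 bp wide. The 10th stands apart: it is 1454 bp wide, the widest of all member peaks, and lies at 119882811 to 119884264, 1683 bp inside the higher-coordinate gene end, with a pileup of 278 reads. Between it and its neighbour lie 40.9 kb without a peak.

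In the middle of the gene, 5 peaks of Tbx5 lie within 6427 bp, from 119831109 to 119837535, with folds between 6.52 and 9.83. The stretch was picked from the positions of the peaks, and no share over the list was computed. It includes gaps of only 320, 461 and 207 bp, and merging within 500 bp leaves 7 regions at Tbx5 in place of 10 peaks. The 5th of the gene's 10 peaks, at 119831639 to 119832047, has the highest background of any member peak, 13.9 reads under a pileup of 96. Part of it overlaps the promoter of the lncRNA gene Gm5563, which lies within Tbx5 and covers 4 of its peaks. This overlap of 111 bases is the one stretch of a member peak whose sequence was available, and is shown because it gives the CpG sites inside a captured region, 6 in all.
Gm5563 promoter within the peak, chr5:119831937-119832047, minus strand: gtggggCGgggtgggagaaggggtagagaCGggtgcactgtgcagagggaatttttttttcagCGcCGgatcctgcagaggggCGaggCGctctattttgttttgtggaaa

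Tbx4, the hindlimb counterpart, had 1 peak. It lies at 85914265 to 85914511 on chromosome 11, in the body (gene 21387, 85886367 to 85916097, 29.7 kb), 17.6 kb downstream of the promoter's transcription start. That start lies inside the body, not at the gene end. The peak is 247 bp wide, with a fold of 8.41 and a pileup of 61 reads. Pitx1, which acts upstream of Tbx4 in the hindlimb bud, had no peak in its body (gene 18740, chromosome 13, 55825044 to 55836190, 11.1 kb) and 1 in the flank, 4189 bp beyond the higher-coordinate end. That peak, at 55840182 to 55840576, is 395 bp wide with a fold of 14.5.

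The forelimb gene had 10 peaks over 108.7 kb and the hindlimb genes together 2 peaks over 80.9 kb, or 9.20 against 2.47 peaks per 100 kb, a ratio of 3.72. The exact 95% interval of this ratio, 0.793 to 34.9, includes equality, so the density difference did not exceed counting error. Peak values overlapped: the hindlimb folds of 8.41 and 14.5 fall inside the range of 6.51 to 29.8 at Tbx5. Their widths, 247 and 395 bp, also fall within the 132 to 1454 bp of Tbx5. Each gene is 1 locus, so no test across genes was made.

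Tbx4 and Tbx5 each sit beside a second T-box gene, Tbx2 and Tbx3, in the same order on their chromosomes. The interval between Tbx2 and Tbx4, 44.4 kb, held no peak and no other gene. The interval between Tbx3 and Tbx5, 111.8 kb, held 6 peaks (5.37 per 100 kb, median fold 11.3, range 6.10 to 32.7), all at the common background, and 2 lncRNA genes. From the last peak of Tbx2 to the only peak of Tbx4 there are 73.2 kb without a peak. Gaps longer than this make up 7.57% of the 83952 gaps between consecutive peaks of the list, whose median is 8.60 kb. The gap was picked because the interval was empty, so the share does not measure rarity. Measured over the whole pair, the Tbx3 and Tbx5 locus had 20 peaks in 214.7 kb and the Tbx2 and Tbx4 locus 5 in 83.5 kb, or 9.32 against 5.99 per 100 kb.

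**Figure D4:**
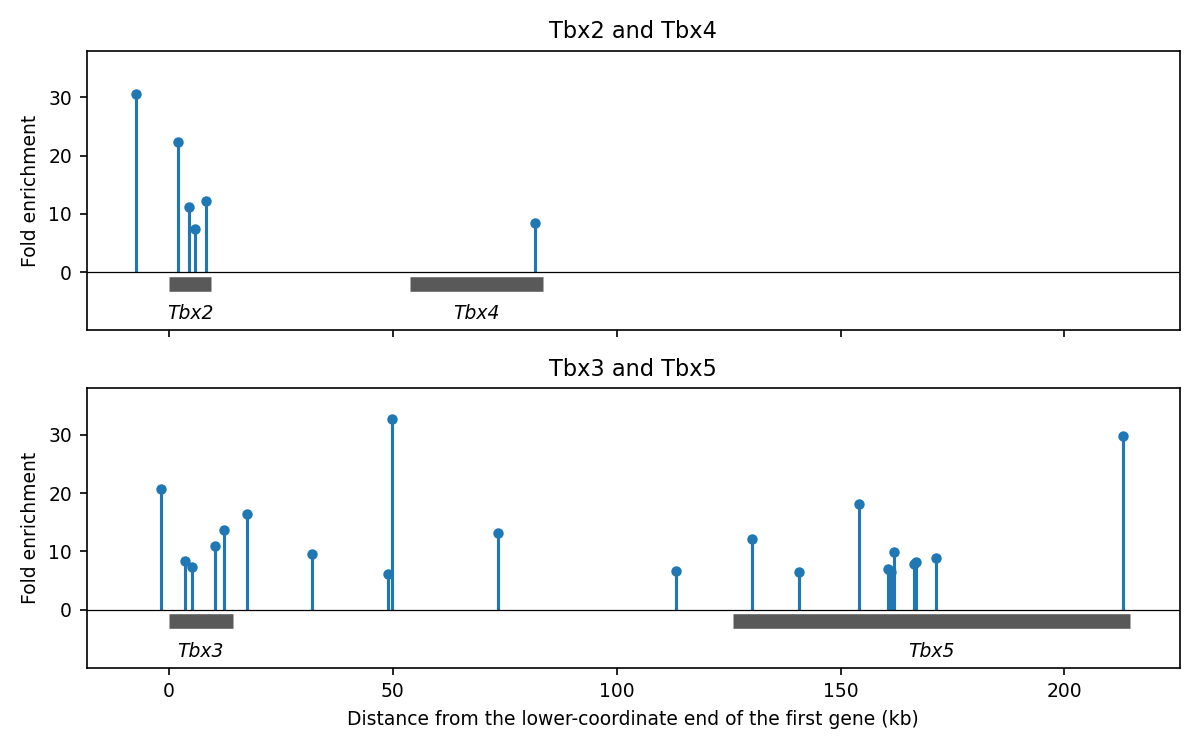
Fold enrichment of every peak across the Tbx2 and Tbx4 locus and the Tbx3 and Tbx5 locus, drawn to the same scale, against distance in kb from the lower-coordinate end of the first gene; dark bars are gene bodies. The interval between the genes is empty at Tbx2 and Tbx4 and holds 6 peaks at Tbx3 and Tbx5.

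Tbx2 is a short gene (gene 21385, chromosome 11, 85832615 to 85841948, 9.33 kb) with 4 peaks in its body and 1 in the flank. The body peaks had folds of 22.2, 11.1, 7.33 and 12.1, from the lower to the higher coordinate, and widths of 403, 604, 164 and 613 bp. The flank peak, at 85825057 to 85825543, had the highest fold of all member peaks, 30.5, with 224 reads over the common background. It lies 7315 bp outside Tbx2 and inside both Bcas3 and the lncRNA gene 2610027K06Rik. Peaks covered 7.74% of the Tbx2 window.

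Like Tbx2, Tbx3 is short (gene 21386, chromosome 5, 119670534 to 119684724, 14.2 kb), with 4 peaks in the body and 1 in each flank. The body peaks had folds of 8.41, 7.33, 11.0 and 13.7. The flank peak on the lower side, 1915 bp outside the gene at 119667977 to 119669261, is 1285 bp wide with a fold of 20.8, and lies within the lncRNA gene Tbx3os1. That on the higher side, with a fold of 16.4, lies within Tbx3os2. Peaks covered 9.84% of the window, the highest share among the members. Of the 9996 protein-coding genes with a window under 50 kb, 18% had 5 or more peaks, as Tbx2 and Tbx3 did, while the other 3 such members, Tbx4, Shox2 and Pitx1, had 1 peak or none.

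Tbx15 (gene 21384, chromosome 3, 99240348 to 99354260, 113.9 kb) had 3 peaks of high fold. One is in the body at 99308641 to 99309029, with a fold of 18.6. The other two lie outside the lower-coordinate end. One, at 99239219 to 99239706, is 886 bp from that end with a fold of 25.8 and 189 reads, and the other, 4971 bp from it, is 996 bp wide with a fold of 15.9. All 3 folds exceed the list median, which holds for no other member with more than 1 peak. A stretch of 68.9 kb between the gene-end peak and the body peak held none.

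Prrx1 (gene 18933, chromosome 1, 163245119 to 163315145, 70.0 kb) had 4 peaks, all in the body. Their folds were 6.65, 13.6, 7.87 and 7.79 and their widths 132, 399, 221 and 199 bp. The peaks form 2 groups of 2, at 51.7 and 55.8 kb and at 4.75 and 5.81 kb downstream of the promoter's transcription start, with 45.6 kb free of peaks between the groups. The peak of highest fold, at 163261738 to 163262136, is in the distal group. No peak lay within 10 kb outside either end, and the next beyond the higher-coordinate end, which is the upstream side of this minus-strand gene, was 25.4 kb away. The position of the enhancer used for the Cre was not analysed here.

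Shox2 (gene 20429, chromosome 3, 66971723 to 66981771, 10.0 kb) was the member without a peak. The peak-free stretch around it is 69.0 kb long, from 66925420 to 66994384, and 8.31% of the gaps in the list are longer. The gap was picked because the window was empty, so that share does not measure rarity. Among protein-coding genes with a window under 50 kb, 74.7% had at least 1 peak. Within 100 kb of either end of Shox2 there were 10 peaks, so the surrounding region is not empty. One end of Rsrc1 overlaps the higher-coordinate end of Shox2.

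Meis1 (gene 17268, chromosome 11, 18880428 to 19019651, 139.2 kb) had 5 peaks in the body and 1 in the flank. Counted from the promoter's transcription start, the body peaks lie 2.94, 4.59, 11.0, 69.7 and 83.6 kb downstream, with folds of 12.9, 14.3, 15.5, 8.0 and 12.2. The 3 peaks near the start are 505, 1264 and 921 bp wide and lie within the lncRNA gene Gm16141, whereas those far inside are 225 and 271 bp wide. The flank peak, with the highest fold of the gene, 16.0, lies 9711 bp beyond the other end, at 18870523 to 18870912.

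Meis2 (gene 17536, chromosome 2, 115861264 to 116067537, 206.3 kb) is the longest member and had 3 peaks in the body and 3 in the flank. The body peaks lie 3.11, 4.16 and 42.7 kb downstream of the promoter's transcription start, with folds of 11.3, 13.3 and 9.90. From the last of these to the peaks beyond the downstream end, 160.8 kb had no peak, and 1.48% of the gaps in the list are longer. The gap was picked as the longest at the gene, so that share does not measure rarity. The 3 flank peaks stand within 561 bp just beyond the downstream end, 313, 593 and 796 bp from it, from 115860440 to 115861000. They are narrow (99, 151 and 57 bp) and weak, with folds of 6.51, 5.28 and 7.15 and pileups of 47, 56 and 52 reads. The fold of 5.28 is the lowest of all member peaks. At least 3 peaks within 1 kb of the gene ends, both ends counted together, occurred in 0.45% of protein-coding genes. The cutoff equals the count seen at Meis2, so this share does not measure rarity. Gaps of 99 and 155 bp separate the 3 peaks, and merging within 500 bp joins them into a single region.

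A peak within 1 kb of a gene end was found at 2 of the 10 members, Tbx15 and Meis2, against a background of 21.8%. Within 5 kb of a gene end, on either side, lay 19 of the 42 peaks. The share over all protein-coding genes was not computed, so crowding at gene ends was not tested. In short genes such as Tbx2, 9.33 kb long, the whole body lies within that distance. The 3 peaks wider than 1 kb (7.14% of member peaks, against 3.92% of the list), at Tbx5, Tbx3 and Meis1, were 1683, 1915 and 5268 bp from the nearest gene end.

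Relatives of these genes and other limb genes were described in the same way. Of the 12 relatives described (other T-box, Pitx, Prrx, Pbx and Pknox genes), 10 had a peak in the window (83.3%) and 1 within 1 kb of a gene end, the T gene (brachyury), with a fold of 7.60. Most peaks were counted at Pknox1 (7 peaks, a TALE homeodomain gene like Meis1), followed by Pbx2 and Tbx10 (4 peaks each). Pitx3 and Tbr1 had none. The median was 5.27 peaks per 100 kb. Prrx2, the relative of Prrx1, had 2 peaks with a median fold of 29.2, where the 4 peaks of Prrx1 had a median of 7.83. This contrast was picked after the values were seen.

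Of 20 genes that act with the members in limb outgrowth and patterning, 17 had a peak in the window (85.0%), with a median of 4.29 peaks per 100 kb. Both shares are near the background of 81.7%. Lmx1b, the dorsal patterning gene, had 12 peaks, and Sall4, a zinc finger gene of limb and germ cells, had 11, or 28.3 per 100 kb. Msx1, Sall4, Dlx5 and Bmp4 had a peak within 1 kb of a gene end. Fgf8, Msx2 and Isl1 had no peak, and Fgf10, the limb bud growth factor, had 1 in its body of 77.9 kb, with a fold of 14.4.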

How the data were processed

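The 6 MBD-seq samples (3 control, 3 cKO) were described by 1 deposited peak list. Per the submitters' processing notes, fastp, Bowtie2 and MACS2 were used with mm10 (GRCm38); per the peak names, 3 datasets were merged with Samtools before calling. In the deposited list each peak has a fold enrichment, which is a ratio of pileup to background. Its significance was deposited as −log10 p and −log10 q, and its deposited score equals 10 times the −log10 q without decimals. The lowest −log10 q was 20.0. An incomplete last line on chromosome 6 was left out, and chromosomes 7 to 9 and both sex chromosomes were not analysed here. All 10 genes lie on covered sequence.

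Pileup and background were recovered from fold = (pileup + 1)/(background + 1) and the Poisson p of a whole pileup, matched within 1% of the spacing between whole pileups; 99.97% of peaks and all 42 member peaks matched. On 5000 simulated peaks 99.98% were recovered. Peaks were placed by midpoint against RefSeq gene positions of GRCm38.p6. That table has no strand, exons or introns, so positions are given relative to gene ends, or to the transcription start where a RefSeq promoter matched (5 of 10 genes). The background was every protein-coding gene of the covered chromosomes that starts at 3 Mb or later. On chromosome 6 the list ends at 88.8 Mb, and genes whose window reaches past that point were left out. The members and lists were chosen with earlier results of these data known. The named genes are all members, and of the 2 comparison lists those with a peak within 1 kb of a gene end and the 2 with most peaks; genes named for having no peak, Prrx2 and Fgf10 were added after their values were seen. Some genes of the comparison lists are not reported here. Alternatives were flanks of 5 and 20 kb, placement by summit or any overlap, −log10 q of at least 50 or 100, merging within 500 bp, and peaks at the common background (within 0.002 reads) only. Python 3.11.15, pandas 2.3.3, SciPy 1.17.1 and matplotlib 3.10.9 were used.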

Additional observations from a re-analysis of the deposited data

How the results depend on the processing

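No paired analysis was possible because peaks carry no values per sample, so no replicate block could be fitted and no replicate left out, and the planned count test of control against cKO was not run. Of 73 alternative values, 57 met the rule set for their result. A reversal was looked for by rule in the Tbx5 ratio only, and none was found there. The rule was to stay within the reported interval or within 1.5 times a reported count. For the T-box to homeobox ratio it was to keep the interval above equality. Some values could hardly fail: counts at gene ends do not use the flank, and the Tbx5 ratio was judged against a wide interval (0.793 to 34.9). The ratio of T-box to homeobox genes kept its direction, but its interval included equality without Tbx2 (1.93), Tbx3 (1.86), Tbx5 (1.92) or Meis2 (1.98); this leaving out was chosen after seeing the data. The ratio of peak density at Tbx5 to that at Tbx4 and Pitx1 ran from 2.60 to 4.61, the last with gene bodies only, an alternative chosen after seeing the data. At a −log10 q of at least 50, 24 member peaks remained, with a median fold of 14.4 and a median width of 481.5 bp. At 100 there were 11 peaks at 5 members, with a median fold of 18.6, a median width of 488 bp and 45.5% in a gene body, and no peak was left at Tbx4 or Pitx1, so the ratio could not be given. These filters remove weak peaks by construction. Members with a peak within 1 kb of a gene end numbered 1 under both filters and 4 when any overlap counted. A flank of 20 kb put 59.3% of 54 peaks in a body, since more flank was counted, and gave all 10 members a peak.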
